A study of Boehmeria nivea with 6 samples.

Results

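Stem expression of the ramie cultivar ZSZ1 was set against that of the wild tenacissima accession QYZM, and the genes that stood apart in stem while matching in leaf and root were described. A gene was compared when it had at least 1 FPKM (fragments on a gene per kilobase of its length and per unit of library size) in either stem library. It counted as apart in stem alone when FPKM + 1 differed at least 4-fold between the stems and under 2-fold between the leaves and between the roots. Of 20693 genes in the table, 14498 were compared and 96 met the rule, 38 higher and 58 lower in ZSZ1 stem. Plants of both varieties were 30 days old when RNA of their leaves, roots and stems was sequenced, with 1 library for each organ of each variety. The groups used were therefore QYZM leaf, QYZM root, QYZM stem, ZSZ1 leaf, ZSZ1 root and ZSZ1 stem, and no treatment or transgene was named. The labels do not say how many plants entered a library or which section of the stem was taken.

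Ramie (Boehmeria nivea) is a perennial of the nettle family grown for its bast fibres, long phloem cells with thick cellulose-rich walls that lie in the outer part of the stem. A whole stem also holds wood-forming xylem, pith, an epidermis and green tissue under it, so its RNA is a mixture of cell types. In bulk samples a lower share of a cell type and less RNA per cell cannot be told apart. The table gives identifiers alone, with no gene names, products or sequences, so the roles of single genes are not described and the organ labels could not be checked against marker genes.

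All values below are scaled FPKM: the deposited values were divided by median-of-ratios factors from the 14813 genes above 0 in all 6 libraries, so that organs and varieties share a scale. The factors were 1.21 for QYZM stem and 1.13 for ZSZ1 stem, 1.21 and 1.11 for QYZM and ZSZ1 root, and 0.898 and 0.603 for QYZM and ZSZ1 leaf. Differences are log2(scaled FPKM + 1) of ZSZ1 minus QYZM. They understate changes of low genes and depend on the added 1 where a library is listed at 0. With 1 library against 1 there is no replicate check and no test, and every count is a description of these libraries. Read counts are not known, so no counting error is given. The spacing of the lowest values, if they stem from whole fragments, put QYZM stem at 1.09 times the depth of ZSZ1 stem. Across the genes compared, QYZM stem correlated at r = 0.896 with ZSZ1 stem, at 0.879 with QYZM root and at 0.734 with QYZM leaf. ZSZ1 stem correlated at 0.763 with ZSZ1 root and at 0.745 with ZSZ1 leaf, so QYZM stem and root were the more alike pair.

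In stem, 153 genes (1.06% of those compared) were at least 4-fold higher in ZSZ1 and 269 (1.86%) at least 4-fold lower. The 96 genes apart in stem alone were 22.7% of these 422 genes (2.91% of those compared) and 0.662% of all genes compared. Differences under 2-fold in both leaf and root were found for 75.7% of all genes compared. The same rule turned round gave 162 genes apart in leaf alone (1.17% of those compared in leaf), or 32.4% of the 500 genes (3.61%) at least 4-fold apart there. It gave 284 genes apart in root alone (1.94% of those compared in root), or 45.9% of 619 (4.23%). The median difference over the genes compared was 0.03 in stem, 0.04 in leaf and -0.02 in root.

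Among these 422 genes, 326 also differed between the varieties by 2-fold or more in leaf or root. Of the 153 higher in ZSZ1 stem, 30 were at least 2-fold higher in both ZSZ1 leaf and ZSZ1 root, 39 shared that direction in leaf but not root, and 14 in root but not leaf. Of the 269 lower in ZSZ1 stem, 100 were lower in both other organs, 40 shared the direction in leaf but not root, and 29 in root but not leaf. An opposite difference of at least 2-fold in leaf or root was seen for 40 of the 153 and for 51 of the 269. The genes apart in stem alone made up 24.8% of the higher and 21.6% of the lower genes. Of all genes compared, 75.7% were under 2-fold apart in leaf and root. Shared and opposite directions were not counted over all genes compared, so nothing is read from those counts.

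**Figure D1:**
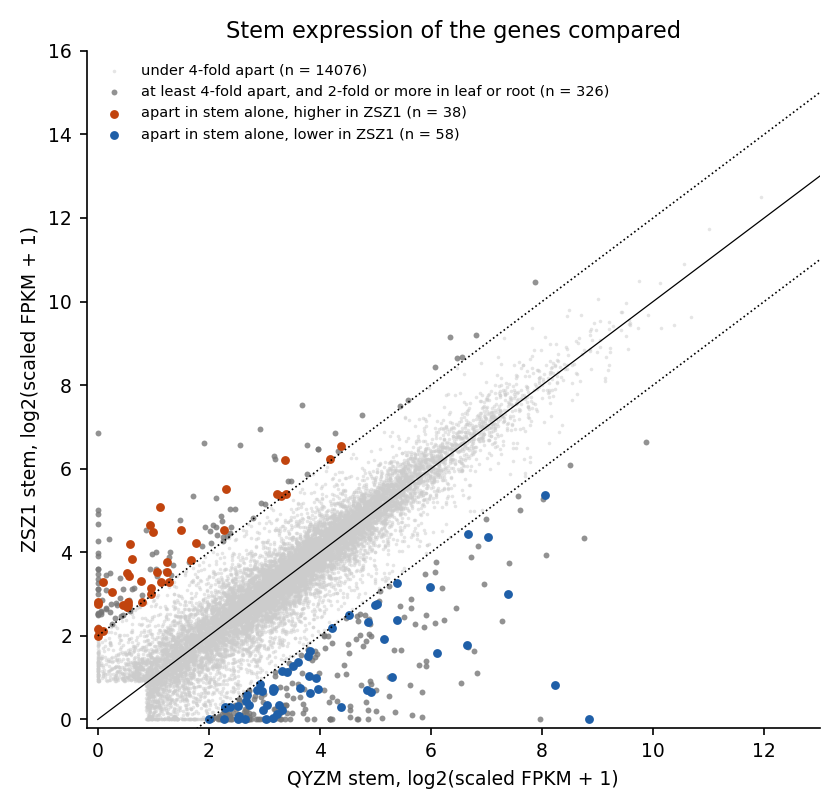
Each point is a gene with at least 1 FPKM in either stem library, placed by log2(scaled FPKM + 1) in QYZM stem (x axis) and ZSZ1 stem (y axis); the solid line marks equal values and the dotted lines 4-fold differences. The 38 genes higher (red) and 58 lower (blue) in ZSZ1 stem alone lie among the other 326 genes outside the dotted lines (dark grey), and the blue points reach farther from the line.

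Genes higher in ZSZ1 stem alone ranged in that library from 3.01 to 91.8 scaled FPKM with a median of 10.4, against a median of 0.933 and a highest value of 19.9 in QYZM stem. The stem differences that chose them ran from 2.0001 to 3.96, with a median of 2.28. At least 10 scaled FPKM in ZSZ1 stem was reached by 20 of the 38 (52.6%) and at least 30 by 8 (21.1%). These shares are near the 51.2% and 18.9% of all genes compared that reached the levels in the higher stem library. The rule used that level, since the lowest genes cannot differ 4-fold in FPKM + 1, so nothing is read from the match. In QYZM stem 4 of the 38 were listed at 0. The median was 1.54 in QYZM leaf and 2.76 in ZSZ1 leaf, while the root medians were 0.676 for QYZM and 0.544 for ZSZ1. Leaf stood above root in both varieties, by any amount, for 23 of the 38 (60.5%), against 35.9% of all genes compared.

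The gene with the largest positive difference was Bnt11G016684, at 33.0 scaled FPKM in ZSZ1 stem and 1.18 in QYZM stem. It stood at 1.46 in QYZM leaf and 2.87 in ZSZ1 leaf, and at 0.391 in QYZM root with a listed 0 in ZSZ1 root. Only the ZSZ1 stem library was high, and its stem difference was 3.96. Bnt06G010410 followed with 24.2 in ZSZ1 stem against 0.920 in QYZM stem (difference 3.71). Its leaf values were 2.81 in QYZM and 6.45 in ZSZ1, close to the 2-fold bound, and its root values were 0.422 and a listed 0. ZSZ1 stem was again the highest of the 6 libraries, with both leaf libraries next.

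The gene of this list with the highest level of all showed another pattern. It stood at 91.8 scaled FPKM in ZSZ1 stem and 19.9 in QYZM stem, with 15.6 and 19.0 in QYZM and ZSZ1 leaf and 15.9 and 14.8 in QYZM and ZSZ1 root. Here 5 libraries were alike and ZSZ1 stem stood above them, so the gene was expressed in every organ. At least 1 FPKM in all 4 leaf and root libraries was also found for 9 of the 38 genes. That is 23.7%, against 76.4% of all genes compared. At the other end, 7 of the 38 (18.4%, against 2.70%) were below 1 FPKM in all 4, where values this low leave little room for a 2-fold difference in FPKM + 1.

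Genes lower in ZSZ1 stem alone reached higher levels and larger differences. In QYZM stem they ranged from 3.01 to 456 scaled FPKM with a median of 10.8, and in ZSZ1 stem from a listed 0 to 40.4 with a median of 0.659. The stem differences that chose them had a median of -2.51 and, apart from the gene listed at 0 in 5 libraries described next, ran from -7.40 to -2.002. At least 30 scaled FPKM in QYZM stem was reached by 15 of the 58 (25.9%) and at least 100 by 6 (10.3%). The shares of all genes compared in the higher stem library were 18.9% and 4.52%. That level was used by the rule here too, so nothing is read from the excess. In ZSZ1 stem 6 of the 58 were listed at 0. The root medians were 6.96 for QYZM and 7.04 for ZSZ1, against leaf medians of 0.766 and 0.189. Root stood above leaf in both varieties, by any amount, for 41 of the 58 (70.7%), against 39.3% of all genes compared.

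Bnt01G001079 was found in a single library. It stood at 456 scaled FPKM in QYZM stem (552 FPKM as deposited) and was listed at 0 in ZSZ1 stem and in all 4 leaf and root libraries. Its match between varieties in leaf and root is thus a match of listed zeros, and no fold is given for it. Bnt12G017433 stood at 301 in QYZM stem and 0.786 in ZSZ1 stem, a difference of -7.40. Its root values were 78.4 in QYZM and 110 in ZSZ1, but it was at 0.192 and 0.106 in QYZM and ZSZ1 leaf. This gene was abundant in the roots of both varieties and in QYZM stem, and near absent from ZSZ1 stem and both leaves.

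Other genes of the list also combined a high root level with a QYZM stem value far above that of ZSZ1 stem. The gene of the 58 with the highest root level stood at 263 in QYZM stem and 40.4 in ZSZ1 stem, with root values of 221 in QYZM and 291 in ZSZ1 and leaf values of 0.0277 and a listed 0. A gene highest in leaf had the highest level of all. It stood at 940 in QYZM leaf and 511 in ZSZ1 leaf, with 101 and 80.9 in QYZM and ZSZ1 root, and at 129 in QYZM stem and 19.6 in ZSZ1 stem. Of the 58 genes, 16 (27.6%, against 76.4% of all genes compared) had at least 1 FPKM in all 4 leaf and root libraries. Another 5 (8.62%, against 2.70%) were below 1 FPKM in all 4.

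**Figure D2:**
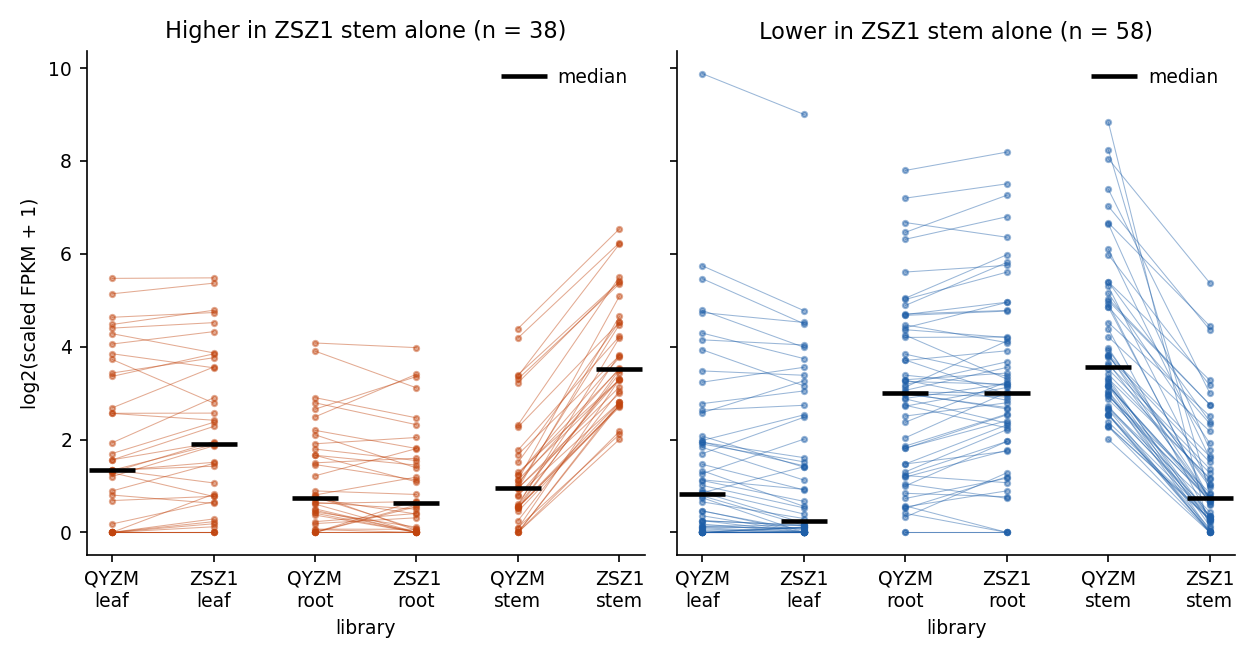
Each point is one gene in one library (x axis) at its log2(scaled FPKM + 1) (y axis), lines join the varieties within an organ, and black bars are medians over the genes. On the left, the 38 genes higher in ZSZ1 stem alone have leaf medians above root medians; on the right, the 58 lower genes have root medians (6.96 and 7.04 scaled FPKM) far above leaf medians (0.766 and 0.189).

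The organ of highest expression differed between the lists. Among the 38 genes higher in ZSZ1 stem, QYZM had its highest value in leaf for 22, in root for 8 and in stem for 5, and 3 were listed at 0 in all 3 QYZM libraries. In ZSZ1 the highest organ was stem for 33 of the 38, leaf for 4 and root for 1. The commonest combination was leaf in QYZM with stem in ZSZ1, for 18 genes (47.4%; 5.22% of all genes compared). Since the rule lowers QYZM stem relative to ZSZ1 stem here, the change of rank of stem is in part set by the choice of genes, and nothing is read from that excess.

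Among the 58 genes lower in ZSZ1 stem, QYZM had its highest value in stem for 41, in root for 14 and in leaf for 3. In ZSZ1 the highest organ was root for 45 of the 58, leaf for 9 and stem for 2, and 2 were listed at 0 in all 3 ZSZ1 libraries. Stem in QYZM with root in ZSZ1 was the commonest combination, for 31 genes (53.4%; 7.50% of all genes compared). The rule raises QYZM stem and lowers ZSZ1 stem in this list, so the rank of stem is again in part set by the choice, and nothing is read from that excess. Among all genes compared, the highest organ in QYZM was leaf for 37.5%, root for 32.6% and stem for 29.3%, and in ZSZ1 it was root for 35.2%, leaf for 32.9% and stem for 31.4%. Over both lists, 47.9% of the 96 genes were highest in stem in QYZM and 36.5% in ZSZ1. These shares depend on the sizes of the lists and on the rank of stem that the rule in part sets, so nothing is read from them.

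**Figure D3:**
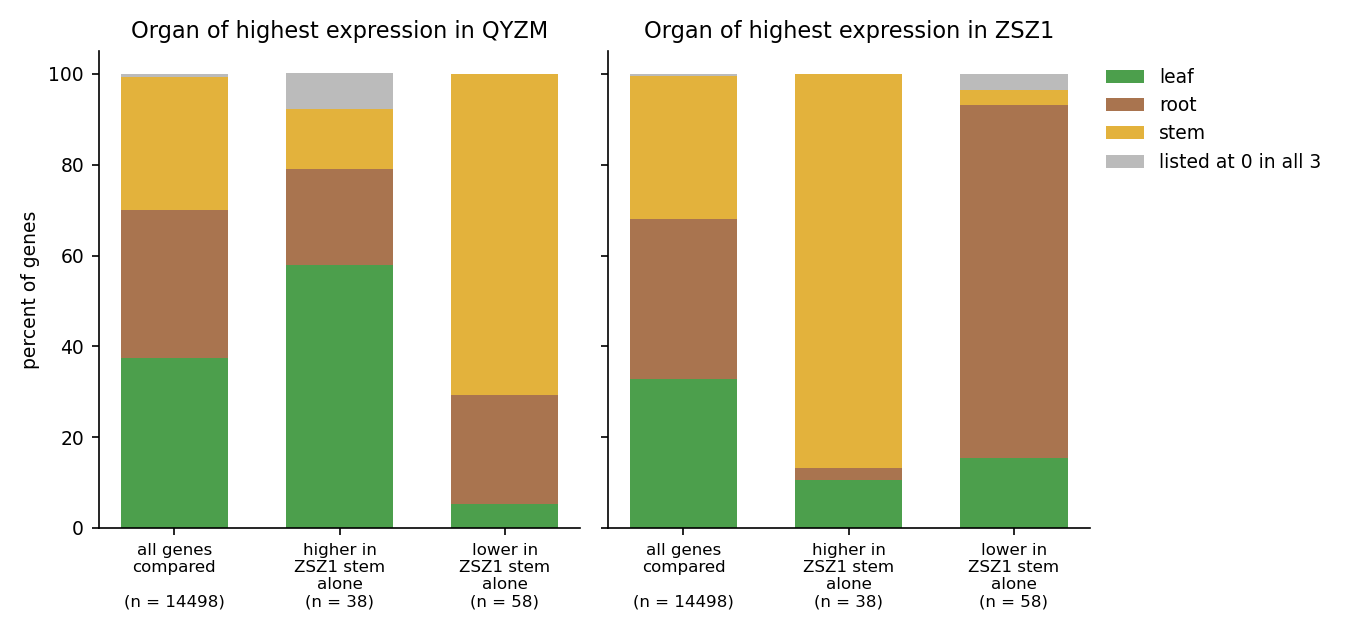
Stacked bars give the percent of genes (y axis) whose highest scaled FPKM was in leaf, root or stem of QYZM (left) and of ZSZ1 (right), for all 14498 genes compared and for the genes higher or lower in ZSZ1 stem alone. In QYZM, leaf is the highest organ for 22 of the 38 genes higher in ZSZ1 stem (57.9%; 37.5% of all genes compared). In ZSZ1, root is the highest for 45 of the 58 lower genes (77.6%; 35.2% of all genes compared). In each case the rule set the stem of that variety low, so nothing is read from the excess.

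The rule did not use leaf against root within a variety, and that difference comes from libraries other than the stems. It did ask that leaf and root each be alike between the varieties, which favours a leaf-root difference that repeats. Shares counted in both varieties, here and above, can thus be raised by the rule. Shares within each variety are given below. They too are shares of genes chosen by the rule, and were not counted over all genes alike in leaf and root. Of the 38 genes higher in ZSZ1 stem alone, 15 (39.5%) were at least 2-fold higher in leaf than in root in both varieties, where 14.2% of all genes compared were. In the reverse direction, root over leaf, there were 5 (13.2%), against 7.47% of all genes compared. Of the other 115 genes at least 4-fold higher in ZSZ1 stem, 29 (25.2%) were leaf-high and 10 (8.7%) root-high in this way. A lean to leaf was thus also seen outside the genes apart in stem alone. Of the 58 genes lower in ZSZ1 stem alone, 35 (60.3%) were at least 2-fold higher in root than in leaf in both varieties. Over all genes compared the share was 7.47%, and of the other 211 genes at least 4-fold lower in ZSZ1 stem it was 21.3%. A lean to root was thus not particular to the genes apart in stem alone. Those other genes differed in leaf or root, so a repeat in both varieties is harder for them. Another 6 of the 58 (10.3%) were higher in leaf, against 14.2% of all genes compared. At a 4-fold difference between leaf and root the counts were 11 of 38 (6.98% of all genes) and 25 of 58 (1.81% of all genes). No test is given, since a model over these 6 libraries would hold in its error term the stem difference that chose the genes.

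These shares depended on how organs were scaled. With values as deposited, which lowers leaf relative to root, 27.7% of the genes then higher in ZSZ1 stem alone were leaf-high against 9.64% of all genes compared. Of those lower in ZSZ1 stem alone, 64.5% were root-high against 17.6% of all genes. With a total of 1000000 per library the root-high share was 58.6% against 21.7% of all genes, and with factors within each organ 56.2% against 19.2%. The leaf-high share was then 33.8% against 10.9%, and 28.6% against 9.50%. In each variety taken alone, leaf was at least 2-fold above root for 18 of the 38 genes in QYZM (47.4%) and 19 in ZSZ1 (50%). Over all genes compared the shares were 18.7% and 20.4%. Of the other 115 genes at least 4-fold higher in ZSZ1 stem they were 33% in QYZM and 55.7% in ZSZ1. In ZSZ1 the genes apart in stem alone were thus no more often leaf-high than those. The reverse held for 6 of the 38 in each variety (15.8%), against 14.1% and 14.2% of all genes compared. Root was at least 2-fold above leaf for 35 of the 58 in QYZM (60.3%) and 38 in ZSZ1 (65.5%), against 14.1% and 14.2% of all genes compared. Of the other 211 genes at least 4-fold lower in ZSZ1 stem the shares were 34.1% and 38.4%. Leaf was above root by that much for 8 of the 58 in QYZM (13.8%) and 6 in ZSZ1 (10.3%).

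**Figure D4:**
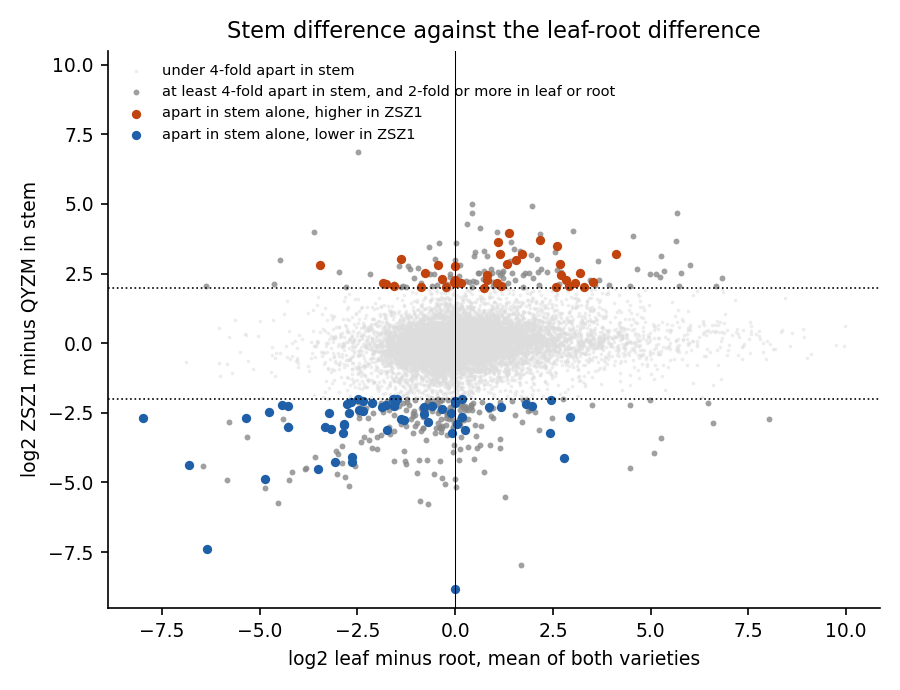
Each point is a gene compared, placed by its log2 leaf minus root difference averaged over both varieties (x axis) and its log2 ZSZ1 minus QYZM difference in stem (y axis); dotted lines mark 4-fold. Genes lower in ZSZ1 stem alone (blue) spread mostly to the root side, on the left, and genes higher in ZSZ1 stem alone (red) lean to the leaf side, on the right.

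The 15 leaf-high genes were placed by stem relative to leaf. Since the rule set ZSZ1 stem at least 4-fold above QYZM stem and leaf alike, a higher position of ZSZ1 stem is built in, and only the levels are described. FPKM + 1 in ZSZ1 stem was a median of 160% of that in ZSZ1 leaf, from 31.9% to 338%, with 11 of the 15 at or above leaf and 4 below it. In QYZM the median was 29.8% of leaf, from 9.94% to 86.3%, and 0 of the 15 reached leaf. Their medians were 17.7 scaled FPKM in ZSZ1 stem, 12.6 in ZSZ1 leaf, 12.2 in QYZM leaf, 1.002 in QYZM stem, and 0.652 and 0.326 in QYZM and ZSZ1 root.

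The 35 root-high genes were placed by stem relative to root in the same way, and here the rule set ZSZ1 stem lower. FPKM + 1 in QYZM stem was a median of 133% of that in QYZM root, from 11.8% to 785%, with 21 of the 35 at or above root and 14 below it. In ZSZ1 the median was 17.4% of root, from 1.61% to 64.5%, and 0 of the 35 reached root. Their medians were 8.97 scaled FPKM in QYZM stem, 8.70 in QYZM root, 8.86 in ZSZ1 root and 0.592 in ZSZ1 stem. The closer correlation of QYZM stem with QYZM root given above moves in the same direction, and its part in this result was not tested.

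The remaining genes had no such difference between leaf and root in both varieties. They numbered 18 of the 38 higher (47.4%) and 17 of the 58 lower genes (29.3%), against 78.3% of all genes compared. The 18 had a median of 8.81 scaled FPKM in ZSZ1 stem and medians of 0.361 to 0.955 in the other 5 libraries, where the gene at 91.8 in ZSZ1 stem was the highest. The 17 had medians of 7.92 in QYZM stem and 0.640 in ZSZ1 stem, with 0.887 to 1.76 in the leaf and root libraries.

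The same classes were counted over all genes compared. Of the 1083 genes at least 2-fold higher in root than in leaf in both varieties, 80 (7.39%) were at least 4-fold lower in ZSZ1 stem and 15 (1.39%) at least 4-fold higher. Of the 2060 genes higher in leaf than in root, 44 (2.14%) were at least 4-fold higher and 22 (1.07%) at least 4-fold lower in ZSZ1 stem. Among the other 11355 genes the shares were 0.828% higher and 1.47% lower. The median stem difference was -0.16 for root-high genes, with quartiles of -0.70 and 0.24, and 0.13 for leaf-high genes, with quartiles of -0.24 and 0.53. Most root-high and leaf-high genes thus differed little between the stems. Across all genes compared, the stem difference and the mean leaf minus root difference correlated weakly (Pearson r = 0.169, Spearman 0.147), a description across genes that share these libraries.

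**Figure D5:**
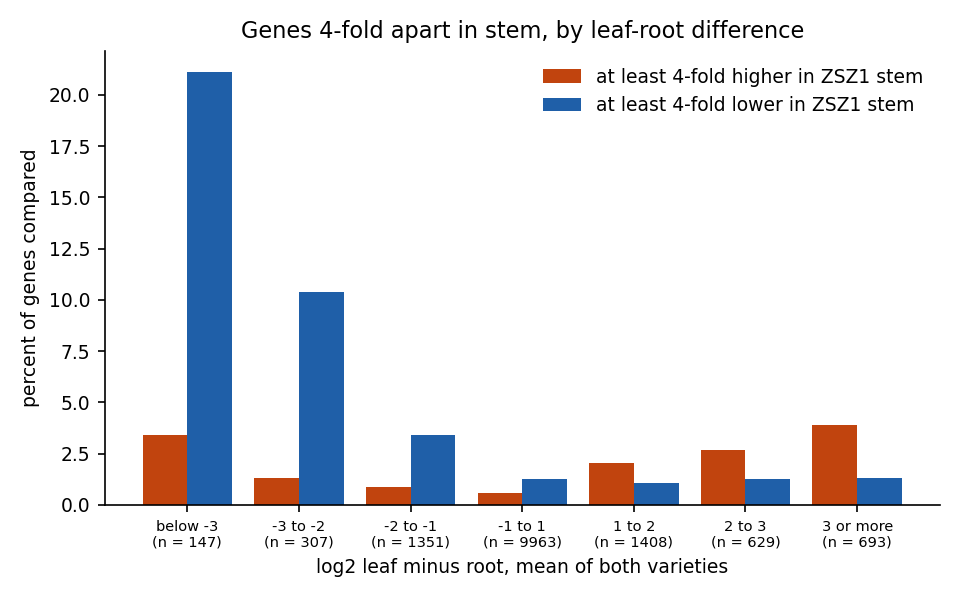
Bars give the percent of genes compared (y axis) that were at least 4-fold higher (red) or lower (blue) in ZSZ1 stem, in classes of the log2 leaf minus root difference averaged over both varieties (x axis). The share lower in ZSZ1 stem is 21.1% of the 147 genes below -3 and 1.30% of the 693 genes at 3 or more, where 3.90% were higher.

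Some of these genes were also enriched in stem over the other organs. Of the 38 genes higher in ZSZ1 stem alone, 12 also stood at least 4-fold above both leaf and root within ZSZ1 (1.92% of all genes compared), and 0 did so in QYZM. Of the 58 lower genes, 8 stood at least 4-fold above both in QYZM (0.848% of all genes compared) and 0 in ZSZ1. The rule used the stem values behind these counts, so the contrast between varieties is no separate result.

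Many genes lay near the thresholds. The stem differences nearest the 4-fold bound, a log2 difference of 2, were 2.0001 inside and 1.9996 outside among higher genes, and -2.002 inside and -1.996 outside among lower genes. The largest leaf or root difference inside the 2-fold bound was 0.993, and the next outside was 1.001. Of the 96 genes, 29 had a stem difference under 2.2 in size, and another 47 genes alike in leaf and root lay between 1.8 and 2.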

How the data were processed

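Gene-level FPKM values for 6 libraries (leaf, root and stem of QYZM and ZSZ1) were deposited by the authors in 1 table. Bowtie2 and RSEM are listed in the submitters' processing notes, and per the labels' protocols each RNA sample gave its own library. Genome build, gene models and strand handling were not given in the sources used. Near-identical genes may share reads. All 6 columns were used. Values were divided by median-of-ratios factors over all 6 libraries, genes with at least 1 FPKM as deposited in either stem were compared, and folds were taken on FPKM + 1. Scaling and calling were tested on simulated data. Named genes were those with the 2 highest and the 2 lowest stem differences, among genes apart in stem alone and among genes 4-fold apart the opposite way in leaf or root. Genes singled out without identifier, and the leaf against root comparison, were chosen after their values were seen. The gene set, rule and lists were chosen with earlier results of these data known. Gene lists by function needed names and were not run. Alternatives varied scaling, pseudocount, filter and thresholds. Python 3.11.15, numpy 2.4.6, pandas 2.3.3, scipy 1.17.1 and matplotlib 3.10.9 were used.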

Additional observations from a re-analysis of the deposited data

Results flagged for a closer look

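Some genes differed between the varieties in opposite directions in stem and in another organ, at least 4-fold each way. The difference between organs was not tested, since each rests on single libraries. Of the 153 genes higher in ZSZ1 stem, 20 were lower in ZSZ1 leaf or root, 18 of them lower in root and 2 in leaf. Of the 269 lower in ZSZ1 stem, 9 were higher in ZSZ1 leaf or root, 5 in root and 5 in leaf, with 1 gene in both. For scale, of the 14634 genes compared in root, 363 were at least 4-fold lower and 256 at least 4-fold higher in ZSZ1 (together 4.23%). Of the 13864 compared in leaf, 302 were lower and 198 higher by that much (together 3.61%). These genes were filtered on root or leaf and not on stem, so the scale is rough. Bnt03G004557 went from 0.149 scaled FPKM in QYZM stem to 19.0 in ZSZ1 stem (log2 difference 4.12) while leaf went from 9.79 to 0.828 and root from 4.52 to 0.493. Bnt04G006649 went from 11.7 to 182 in stem (3.85) and from 37.0 to 78.0 in leaf, while root went from 3.98 to 0.0911. Bnt10G015208 went from 49.2 to 0.0845 in stem (-5.53), while leaf went from 1.69 to 28.2 and root from 1.40 to 4.58. Bnt03G004545 went from 56.4 to 0.569 in stem (-5.19), while leaf went from a listed 0 to 13.7 and root from 128 to 96.8.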

How the results depend on the processing

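The shares of leaf-high and root-high genes were added after the data were seen. No paired analysis was possible because each group had 1 library and no test was made, and leaving out a replicate would leave an empty group. Each named gene's stem difference kept its sign under the 4 other scalings, while filters, fold bounds and pseudocounts cannot turn a sign. Counts of genes moved by over 1.5 times under the alternatives below. Where an alternative does not itself loosen or tighten the rule, the cause was not tested. In the order higher and lower in ZSZ1 stem at least 4-fold, then higher and lower in stem alone, a total of 1000000 per library gave 289, 522, 74 and 116 genes. A pseudocount of 0.1 gave 390, 626, 76 and 109, and a pseudocount of 5 gave 33, 85, 10 and 22. A bound of 3-fold in stem gave 277, 429, 85 and 112, and 8-fold gave 36, 98, 8 and 17. For stem alone, under 1.5-fold in leaf and root gave 20 and 29, under 3-fold 68 and 92, leaf alone alike 75 and 113, and root alone alike 73 and 101. Of the 38 and 58 genes, 26 and 46 remained with the total of 1000000, 33 and 51 as deposited, 22 and 38 with a pseudocount of 0.1, and 6 and 15 with a pseudocount of 5. The root-high share of genes lower in ZSZ1 stem alone, 60.3%, was 46.4% at 3-fold in stem, 38.6% with root alone alike and 43.1% at 4-fold between leaf and root, and its range was 38.6% to 70.6%. The leaf-high share of the higher genes, 39.5%, ranged from 27.7% to 51.7%. The percent highest in stem ranged from 38.4 to 53.1 in QYZM and from 28.1 to 42.9 in ZSZ1.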

Other observations

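Genes apart in stem alone were spread over all 14 numbered identifier prefixes, with 4 to 10 genes each, and 1 carried the prefix Un. They were 0.351% to 1.40% of the genes compared under a prefix. No 2 genes of the same direction had directly consecutive identifiers. Whether identifiers follow the order of genes on chromosomes is not given in the sources used here. By level in the higher stem library, genes apart in stem alone were 0.304% of those under 5 scaled FPKM, 1.09% of those from 5 to 10, 0.576% from 10 to 30, 0.816% from 30 to 100 and 0.915% at 100 or more. The lowest genes cannot differ 4-fold in FPKM + 1, and both lists began at 3.01 scaled FPKM in that library. The low share under 5 is thus in part set by the rule.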
